A study of Mus musculus with 2 samples.

Results

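Helios-positive CD4+ CD25+ T cells were divided by which of a pair of transcripts they held, ICRE or Foxp3. ICRE is a feature that the study's authors added to their gene table, beside EYFP and CRE. Members were barcodes with at least 500 genes, at most 10% mitochondrial unique molecular identifiers (UMIs), at least 1200 UMIs and at least 2 UMIs of Ikzf2, the gene for Helios. ICRE cells (side A) held at least 1 ICRE UMI and 0 Foxp3 UMIs, and Foxp3 cells (side B) held at least 1 Foxp3 UMI and 0 ICRE UMIs. The lymph node gave 114 ICRE and 530 Foxp3 cells, the spleen 133 and 617. Together these 1394 cells were a part of 3779 Helios-positive cells, of 10586 cells that passed the filter and of 11919 deposited barcodes.

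The mice were healthy Myc fl/fl Foxp3 Cre/WT females, with a Cre construct in 1 of the 2 X-linked Foxp3 alleles and floxed Myc in every cell. YFP-positive and YFP-negative cells were sorted and loaded together, as 1 10x 3′ (V2) library from lymph node and 1 from spleen. No source used here gives the age of the mice, the number of animals pooled or the YFP status of a cell. The 2 libraries hold no mouse with Cre and unfloxed Myc, so effects of Cre and of Myc loss cannot be told apart. The sequence behind ICRE is also not given, so reading an ICRE UMI as a transcript of the Cre-carrying Foxp3 allele is an assumption.

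Foxp3 is the transcription factor that defines regulatory T (Treg) cells, the lymphocytes that restrain immune responses. Helios is a zinc finger protein of the Ikaros family found in most Treg cells that arise in the thymus. A female cell silences 1 X chromosome, so in a heterozygous female some Treg cells use one Foxp3 allele and some the other. Resting Treg cells recirculate through lymphoid organs with the help of Ccr7 and S1pr1, whereas effector Treg cells have met antigen, divide and enter tissues. Myc drives ribosome production, metabolism and division when a T cell is activated.

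The cells were chosen by their UMIs of ICRE, Foxp3 and Ikzf2, so these values are given as a description. Foxp3 lies on chromosome X (7573644 to 7595245, plus strand) and Ikzf2 on chromosome 1 (69531214 to 69687245, minus strand) of GRCm38. Of the ICRE cells, 100 of 114 in lymph node and 113 of 133 in spleen held a single ICRE UMI, and the highest count was 4 in each. Of the Foxp3 cells, 334 of 530 and 376 of 617 held a single Foxp3 UMI, with highest counts of 7 and 6. So most cells of either kind were called from 1 molecule. A further 13 lymph node and 21 spleen Helios-positive cells held both transcripts, and 1093 and 1258 held neither. At the limit of the rule, 536 lymph node and 591 spleen cells held 2 Ikzf2 UMIs, and 907 and 1130 cells held 1 and stayed outside it.

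The 2 kinds of cell differed in depth before any gene was compared. ICRE cells had a median of 1678.5 UMIs in lymph node and 1750 in spleen. Foxp3 cells had 3236.5 and 3512. Cells with neither transcript lay between, at 2437 and 2343.5. The few cells with both, 13 and 21, had medians of 4052 and 3264. The sides were called on full counts, where a deeper cell can hold more UMIs of either transcript. The part of the rule in this gap was not tested. To compare all cells at 1 depth, each was thinned at random to 1200 UMIs, after which the median cell had 677 detected genes on side A in both libraries and 647 and 663 on side B. Thinning equalises counting, not the biology or capture that goes with a cell's full depth, so results are also given with side B weighted to match side A in depth. The libraries held 13324306 and 16868549 UMIs, shared 53 barcodes, and shared 2 barcodes among the cells compared.

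B cells should hold none of the 3 transcripts. A first definition, at least 3 UMIs of 12 B cell markers, took in 1227 lymph node and 1362 spleen barcodes, of which 1100 and 1250 had at least 2 thinned UMIs of T cell markers, and did not isolate B cells. With at least 3 UMIs of Cd79a, Cd79b and Ms4a1 and at most 1 UMI of T cell markers, a definition chosen after seeing the data, there were 52 and 63 B cell barcodes of 2269 and 2024 median UMIs. ICRE was in 0 of 52 and 0 of 63 of them, and Foxp3 in 0 and 2 (3.17%). An Ikzf2 UMI was in 3 of 52 (5.77%) and 3 of 63 (4.76%) of them, and none held 2. In all other filtered cells, of 2104 and 2054 median UMIs, ICRE was in 7.97% and 8.56% and Foxp3 in 21.9% and 20.2%. T cell genes were present on both sides, with at least 2 UMIs of 6 T cell markers in 100% and 94.9% of lymph node and 99.2% and 97.4% of spleen ICRE and Foxp3 cells.

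The share of ICRE cells among cells with just one of the transcripts was lower the more Helios the cells held. In lymph node it was 34.5% (142 of 411) with 0 Ikzf2 UMIs, 32.5% with 1, 30.0% with 2, 24.2% with 3, 17.3% with 4 and 7.27% (20 of 275) with 5 or more. In spleen it was 40.1% (236 of 588), 33.4%, 29.9%, 29.0%, 15.5% and 7.23% (24 of 332). Among all Helios-positive cells the share was 17.7% in each library (95% intervals 14.8 to 20.9% and 15.1 to 20.7%), and 27.7% and 29.7% when thinned counts called the sides. All intervals given beside values are of counting error alone, exact binomial for shares, exact conditional for ratios of counts, and none covers differences between animals.

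Cells with 5 or more Ikzf2 UMIs also had more UMIs in all, a median of 3224 in lymph node against 1859 with none. When all 3 transcripts were counted after thinning, the share of ICRE cells was 34.5%, 36.6% and 34.7% in lymph node with 0, 1 and 2 Ikzf2 UMIs, and 17.9% (10.4 to 27.7%) with 3 or more. In spleen it was 40.8%, 37.7% and 35.7%, and 23.1% (15.8 to 31.8%) with 3 or more. These shares use the UMIs that chose the cells and are a description. Summed over the members themselves, thinned Ikzf2 was 1652 CPM (UMIs scaled to a common library total) in ICRE cells and 1489 in Foxp3 cells of lymph node, and 1855 and 1506 in spleen.

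**Figure D1:**
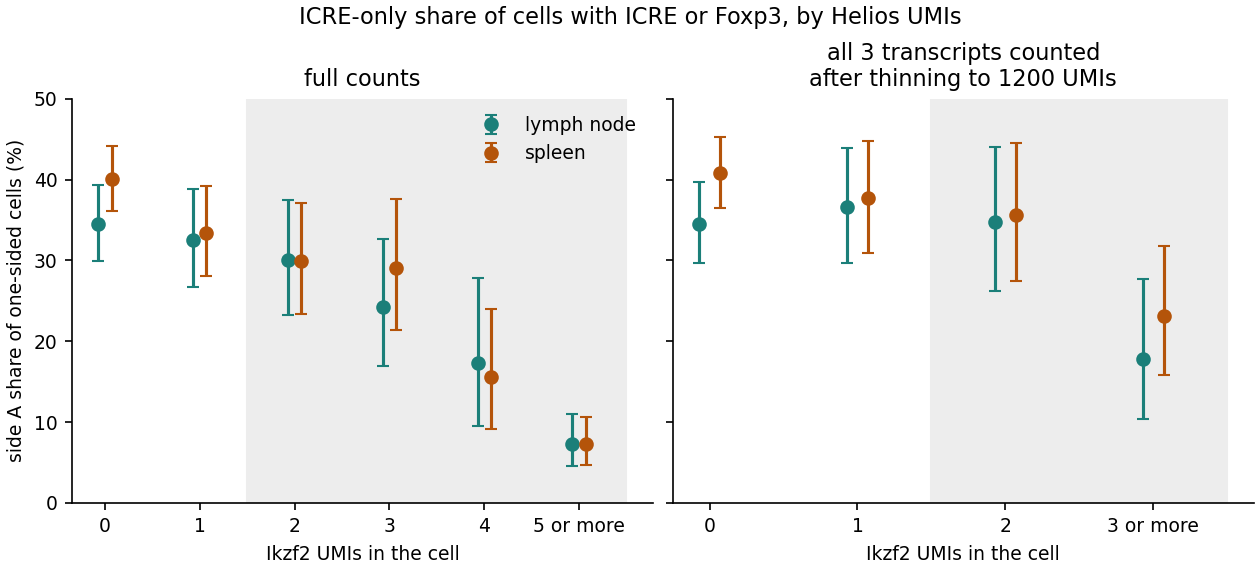
Share of ICRE cells (side A) among cells with ICRE or Foxp3 but not both (y axis, %), by Ikzf2 UMIs per cell (x axis), in lymph node and spleen, with exact 95% binomial intervals. Shading marks the Helios-positive range. In full counts the share runs from 34.5% and 40.1% down to 7.27% and 7.23%, and after thinning it is lowest at 3 or more UMIs.

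Genes were compared as the ratio of summed thinned UMIs in ICRE cells to those in Foxp3 cells, within each library. With 1 library per tissue and cells of 1 library not being replicates, no p-value was computed. Of 1233 genes with a mean of at least 100 CPM in both libraries, 71 (5.76%) were over 1.5-fold higher in ICRE cells in both, and 46 (3.73%) over 1.5-fold lower in both. Some of them, named below, were under 100 CPM on 1 side and passed the minimum through the other, so these counts are a description. In either direction, 531 (43.1%) were higher and 330 (26.8%) lower in both. Within lymph node 813 genes (60.2%) were higher and 538 (39.8%) lower, 214 (15.8%) and 89 (6.59%) past 1.5-fold. Within spleen 800 (58.5%) were higher and 568 (41.5%) lower, 171 (12.5%) and 102 (7.46%) past 1.5-fold. The median log2 ratio of all genes was 0.11 in lymph node (1351 genes) and 0.09 in spleen (1368 genes), so the typical gene was a slightly higher share of all UMIs in ICRE cells. Scaled on genes other than ribosomal and mitochondrial ones, the median was -0.0004 and 0.007. Scaled so that this median is 0, 49 genes were higher and 60 lower, and with Foxp3 cells weighted for depth 37 were higher and 35 lower, of which 23 and 23 were among the 71 and 46. Across genes the log2 ratios of the 2 libraries had r = 0.663 (1233 genes, a description, since genes of 1 cell are not independent).

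**Figure D2:**
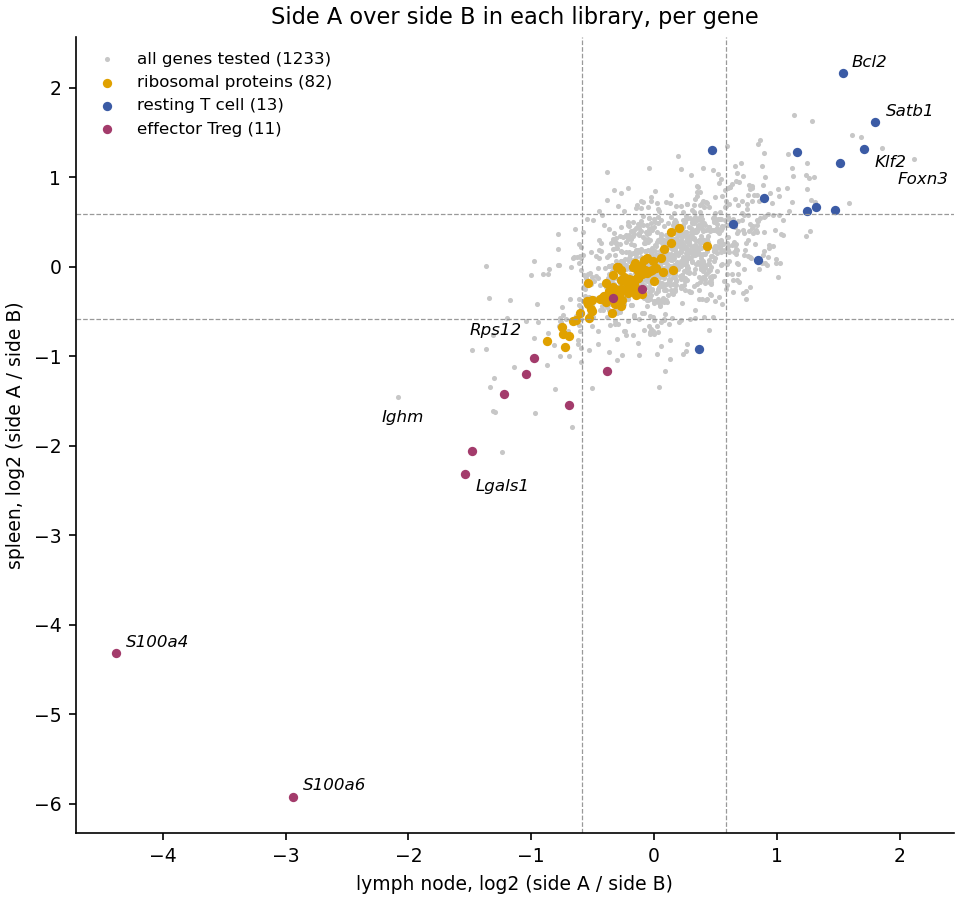
Log2 ratio of side A (ICRE) to side B (Foxp3) for 1233 genes, in lymph node (x axis) and spleen (y axis), with dashed lines at 1.5-fold. Resting genes such as Bcl2 and Satb1 lie at upper right, effector genes such as S100a4 and S100a6 at lower left, and the ribosomal protein genes mostly a little below 0 in both.

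Genes of resting, recirculating T cells were higher in ICRE cells. Of the 22 genes in this list, 13 were at 100 CPM or more in both libraries, 12 of them were higher in both and 9 (69.2%, against 5.76% of all genes tested) were over 1.5-fold higher in both. Satb1, Tcf7 and, in spleen, S1pr1 were under 100 CPM in Foxp3 cells and passed through ICRE cells, so the count lends no support of its own. The list's median log2 ratio was 1.24 in lymph node and 0.72 in spleen, against 0.11 and 0.09 over all genes. The summed list, which needs no minimum level per gene, was at 7083 CPM in ICRE and 2946 CPM in Foxp3 cells of lymph node (2.40-fold, 2.22 to 2.60), and at 6911 and 3158 CPM in spleen (2.19-fold, 2.04 to 2.35). Il7r, the interleukin 7 receptor, was the exception, 1.29-fold higher (0.89 to 1.83) in lymph node and 0.53 times the level of Foxp3 cells (0.32 to 0.83) in spleen.

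Klf2, a regulator of T cell quiescence that switches on S1pr1, was at 2105 CPM in ICRE cells and 642 CPM in Foxp3 cells of lymph node, a ratio of 3.28 (2.81 to 3.83). In spleen it was at 1911 and 766 CPM, a ratio of 2.50 (2.16 to 2.87). A thinned Klf2 UMI was in 84.2% of the lymph node ICRE cells and in 40.9% of the Foxp3 cells. B cells transcribe Klf2 too, with a UMI in 69.2% of the 52 lymph node B cell barcodes. S1pr1, the receptor by which T cells leave lymphoid organs, had ratios of 2.86 (1.91 to 4.23) and 2.24 (1.39 to 3.55). Ccr7, the chemokine receptor that guides T cells into lymph nodes, was at 278 and 124 CPM in lymph node (2.24-fold, 1.48 to 3.33) and 414 and 170 CPM in spleen (2.43-fold, 1.78 to 3.30). Where at least 2 UMIs were needed to call a side, Ccr7 was at log2 -0.15 in lymph node.

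Bcl2, which protects cells from apoptosis, was at 1192 CPM in ICRE cells and 409 CPM in Foxp3 cells of lymph node (2.91-fold, 2.38 to 3.56). In spleen the values were 1686 and 375 CPM (4.49-fold, 3.78 to 5.33). Of the spleen ICRE cells, 39 of 133 had no Bcl2 UMI and 42 had 3 or more, while 453 of 617 Foxp3 cells had none and 27 had 3 or more. Bcl2 in cells with neither transcript was intermediate, at 621 CPM in lymph node and 799 CPM in spleen. Satb1, a chromatin organiser of resting T cells, had ratios of 3.49 (2.15 to 5.60) and 3.06 (1.91 to 4.85), from 33 UMIs in ICRE cells of each library. Foxp1, a factor that holds naive T cells in quiescence, had ratios of 2.37 (1.67 to 3.33) and 1.55 (1.09 to 2.16), and Lef1, a partner of Tcf7 in naive T cells, 1.86 (1.23 to 2.77) and 1.70 (1.16 to 2.45).

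**Figure D3:**
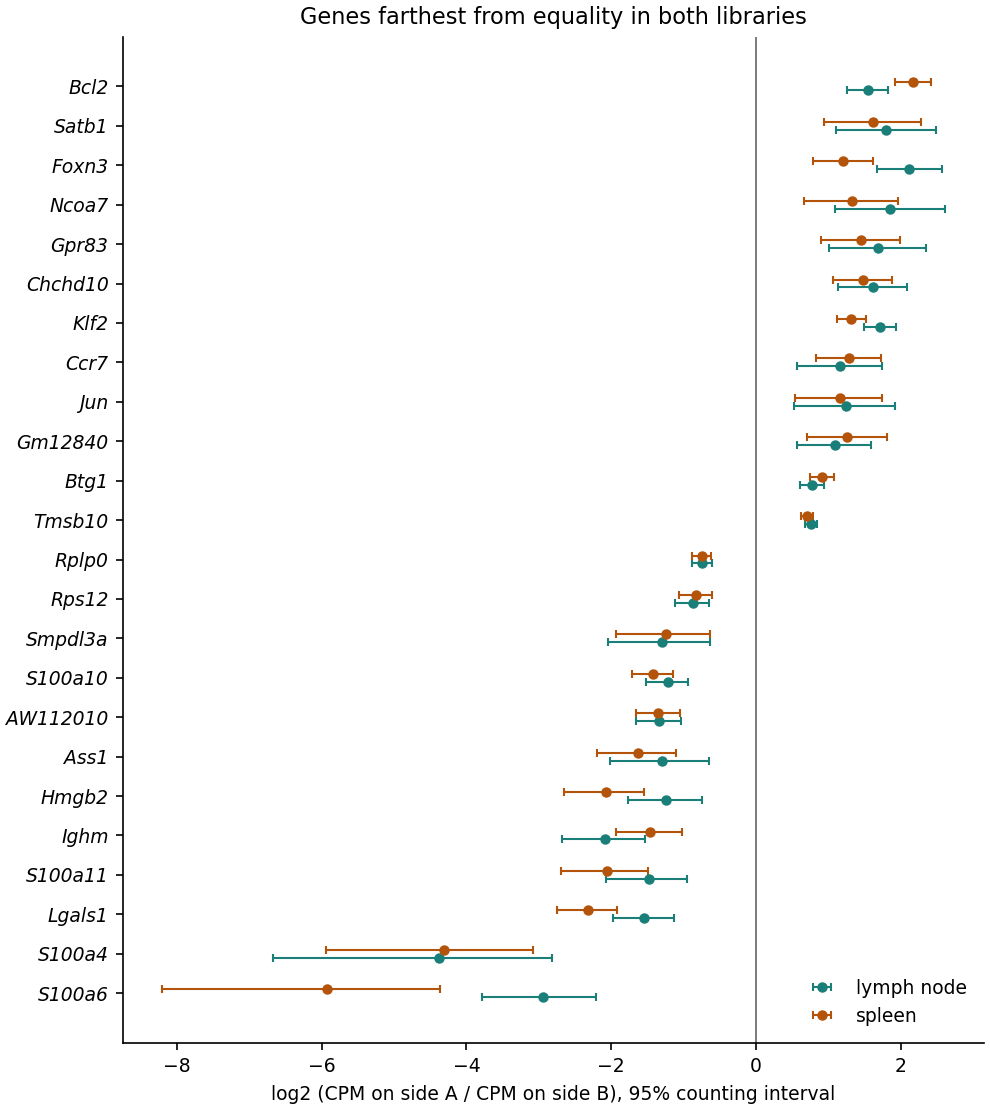
Log2 ratio of side A (ICRE) to side B (Foxp3) with its exact 95% counting interval (x axis) for the 12 higher and 12 lower genes farthest from equality in both libraries. S100a4 and S100a6 are the lowest, and Bcl2 is highest in spleen and Foxn3 in lymph node.

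Genes of effector Treg cells were lower in ICRE cells. Of the 38 genes in this list, 11 reached 100 CPM in both libraries, all 11 were lower in both and 8 (72.7%, against 3.73% of all genes) over 1.5-fold lower. S100a4, S100a6, Batf and Id2 were under 100 CPM in ICRE cells of at least 1 library and passed through Foxp3 cells, so the count lends no support of its own. The sum over all 38, which needs no minimum, was 4050 CPM in ICRE and 9554 CPM in Foxp3 cells of lymph node, 0.42 times (0.39 to 0.46), and 3496 and 12107 CPM in spleen, 0.29 times (0.26 to 0.31). The list's median log2 ratio was -1.22 in lymph node and -1.48 in spleen. Without cells holding at least 2 UMIs of other cell types' or cycling markers, which left 63 ICRE and 65 Foxp3 cells of lymph node and 47 and 60 of spleen, it was -0.37 and 0.08, Icos was at 0.05 and 0.35 and Lgals1 at 0.22 and -1.23, while S100a6 was at -3.23 and -3.97. So the lower effector median did not hold in spleen in that smaller set of cells. That filter read full counts, where a deeper cell holds more marker UMIs. The Foxp3 cells left had medians of 2345 and 2423.5 UMIs, against 3236.5 and 3512 before. Its markers include Ighm, among the lowest genes in ICRE cells, and Il1rl1, a member of the effector list. In that set 8 list genes reached 100 CPM in both libraries, against 11 above. What the filter itself did to the median was not tested.

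The widest gaps were in S100a4 and S100a6, neighbouring genes on chromosome 3 (90603771 to 90606045 and 90612882 to 90624181) for small calcium-binding proteins of motile, activated cells. S100a4 had 3 UMIs in 114 ICRE cells and 291 in 530 Foxp3 cells of lymph node (21.9 and 458 CPM, 20.9-fold lower, 7.07 to 102). In spleen it had 5 UMIs in 133 and 462 in 617 cells (31.3 and 624 CPM, 19.9-fold lower, 8.47 to 61.6). A UMI of S100a4 was in 2.6% and 1.5% of ICRE cells, near the 0% and 3.17% of B cell barcodes, and in 21.7% and 31.9% of Foxp3 cells. S100a6 was at 110 and 843 CPM in lymph node (7.69-fold lower, 4.62 to 13.8) and at 18.8 and 1140 CPM in spleen (60.6-fold lower, 20.7 to 295). One lymph node ICRE cell gave 7 of the 15 S100a6 UMIs found there. Lgals1, or galectin-1, was 2.91-fold lower (2.19 to 3.95) and 4.98-fold lower (3.78 to 6.69), S100a11 2.80-fold (1.93 to 4.20) and 4.17-fold lower (2.81 to 6.45), and Vim, the intermediate filament vimentin, 2.06-fold (1.46 to 2.98) and 2.29-fold lower (1.78 to 2.99). Without cells holding other cell types' or cycling markers, S100a11 was at log2 0.63 in lymph node and Vim at 0.21 in spleen.

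Receptors and regulators of effector Treg cells had few UMIs, and of those given here Maf, Klrg1 and Itgae were chosen after their values were seen. Icos, a costimulatory receptor, had 6 and 98 UMIs in ICRE and Foxp3 cells of lymph node (3.51-fold lower, 1.56 to 9.81) and 17 and 352 in spleen (4.46-fold lower, 2.75 to 7.75). No B cell barcode had an Icos UMI. Cxcr3, a chemokine receptor for inflamed tissue, had 4 and 102 UMIs (5.48-fold lower, 2.08 to 20.5) and 1 and 65 UMIs (14.0-fold lower, 2.43 to 562). Itgb1, the integrin beta 1 chain, was 3.13-fold (1.47 to 7.99) and 4.13-fold lower (1.84 to 11.5). Maf, a transcription factor for interleukin 10, had 6 and 102 UMIs (3.66-fold lower, 1.62 to 10.2) and 1 and 125 UMIs (26.9-fold lower, 4.75 to 1073). Without cells holding other cell types' or cycling markers Maf was at log2 0.05 in lymph node, and Icos was not lower in either library, as given above. Klrg1, a receptor of terminally differentiated effector cells, had 0 UMIs in ICRE cells of both libraries and 70 and 90 in Foxp3 cells. Itgae, the CD103 integrin, had 0 in ICRE cells and 27 and 126 in Foxp3 cells.

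Set against each other in single cells, the 2 lists divided the sides. Effector UMIs outnumbered resting UMIs in 17.5% of lymph node ICRE cells (20 of 114, 11.1 to 25.8%) and 70.0% of Foxp3 cells (371 of 530, 65.9 to 73.9%). In spleen the shares were 17.3% (23 of 133, 11.3 to 24.8%) and 69.0% (426 of 617, 65.2 to 72.7%). Helios-positive cells with neither transcript lay between, at 51.9% and 45.8%. Among Foxp3 cells of up to 2400 UMIs the shares were 62.2% and 60.8%, against 14.0% and 17.1% of ICRE cells of that depth. The Foxp3 side had a long upper tail. The 90th percentile of its cells was 31.1 effector UMIs of 1200 in lymph node and 36.0 in spleen, against 9.0 and 8.8 for ICRE cells. The medians were 6 and 8 effector UMIs in Foxp3 cells and 4 and 4 in ICRE cells. Resting list UMIs had a median of 8 in ICRE cells and 3 in Foxp3 cells of each library. In lymph node the share of ICRE cells with more effector than resting UMIs was 7.84% (4 of 51) with 2 Ikzf2 UMIs and 33.3% (11 of 33) with 4 or more. In spleen it was 16.4% (9 of 55) and 20% (8 of 40).

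**Figure D4:**
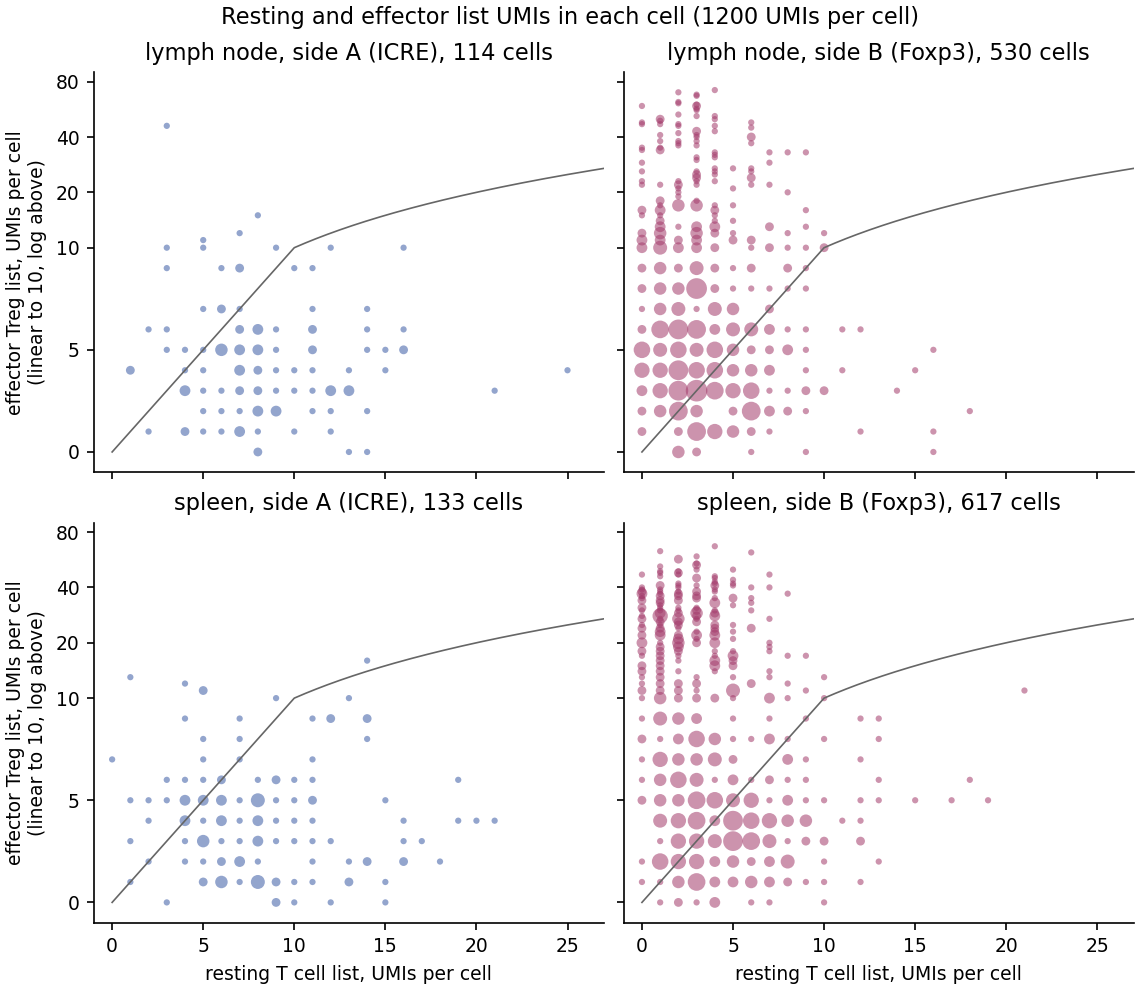
Resting list UMIs (x axis) and effector list UMIs (y axis, linear to 10 and log above) per cell after thinning to 1200 UMIs, for ICRE (side A) and Foxp3 (side B) cells of each library. Dot area is the number of cells and the line marks equal counts. Most ICRE cells lie below the line, and Foxp3 cells spread up to 72 effector UMIs.

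When Foxp3 cells were weighted to the resting and effector UMIs of ICRE cells, both lists were matched by construction, and the medians of the resting list became 0.36 and -0.11 and of the effector list 0.01 and -0.39. Bcl2 then had a log2 ratio of -0.22 in lymph node and 0.82 in spleen, and Klf2 0.56 and 0.27. S100a4 was at -2.53 and -2.40 and S100a6 at -1.20 and -4.08. With that weighting 42 genes were over 1.5-fold higher and 15 lower in both libraries, 20 and 9 of which were among the 71 and 46. With depth matched as well, Bcl2 was at -0.47 and 0.64 and Klf2 at 0.37 and -0.09, so neither kept its direction in both libraries. In that setting S100a4 was at -2.10 and -2.17 and S100a6 at -0.93 and -3.60, and 36 genes were over 1.5-fold higher and 19 lower, 10 and 7 of which were among the 71 and 46.

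The Treg core list holds surface receptors and regulators common to Treg cells, and its sum differed little. It was 4752 CPM in ICRE and 4862 CPM in Foxp3 cells of lymph node (0.98 times, 0.90 to 1.06) and 6284 and 5667 CPM in spleen (1.11-fold, 1.03 to 1.19). Of its 12 genes at 100 CPM in both libraries, 7 were higher and 1 lower in both (43.1% and 26.8% of all genes), with 4 (33.3%) and 1 (8.33%) past 1.5-fold (5.76% and 3.73% of all genes). Gpr83 and Ecm1 were under 100 CPM in Foxp3 cells of lymph node and passed through ICRE cells, so the count lends no support of its own. Gpr83, an orphan receptor of Treg cells, was 3.23-fold (2.02 to 5.10) and 2.73-fold higher (1.86 to 3.96). Ecm1, a secreted matrix protein, was 2.44-fold (1.38 to 4.17) and 3.09-fold higher (2.15 to 4.42), though at log2 -0.05 in lymph node when Foxp3 cells were weighted for depth. Capg, an actin-capping protein, was the gene lower in both, 1.96-fold (1.34 to 2.97) and 1.73-fold lower (1.38 to 2.20). Members of one identity list thus went in opposite directions.

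Genes of the interleukin 2 (IL-2) receptor and its STAT5 pathway, on which Treg cells depend for survival, were higher in ICRE cells. The sum was 3889 and 2421 CPM in lymph node (1.61-fold, 1.45 to 1.77) and 4524 and 2535 CPM in spleen (1.78-fold, 1.64 to 1.95). Bcl2, at the levels given above, made up most of that gap in each library. The other members together were higher by a smaller ratio. Of 9 genes at 100 CPM, 7 were higher in both (43.1% of all genes) and 3 (33.3%) past 1.5-fold (5.76% of all genes), one of them Bcl2, which is also in the resting list. Il2ra, the receptor's alpha chain CD25 on which the cells were sorted, had 49 UMIs in ICRE and 92 in Foxp3 cells of lymph node (358 and 145 CPM, 2.48-fold, 1.71 to 3.54), and 52 and 146 in spleen (326 and 197 CPM, 1.65-fold, 1.18 to 2.28). Socs1, a feedback inhibitor of cytokine signals, was 1.51-fold (0.93 to 2.38) and 2.54-fold higher (1.78 to 3.60). With Foxp3 cells weighted to the depth of ICRE cells, Il2ra was at log2 0.12 and 0.27, Treg core at -0.04 and 0.23, and the IL-2 list at 0.12 and 0.31. With depth and state matched together, Il2ra was at -0.46 and the IL-2 list at -0.21 in lymph node, so their direction did not hold there.

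Genes that restrain growth were higher in ICRE cells, 11 of 12 in both libraries (43.1% of all genes) and 6 (50%) past 1.5-fold (5.76% of all genes). Klf2, Foxp1, Foxo1 and Klf3 are in this list and in the resting list, and Btg1 and Btg2 are in this list and in the early response list below. The sum of the growth list was 1.83-fold (1.72 to 1.96) and 1.72-fold higher (1.61 to 1.83). Btg1, an antiproliferative protein, was at 2968 and 1731 CPM in lymph node (1.71-fold, 1.53 to 1.92) and 2801 and 1484 CPM in spleen (1.89-fold, 1.69 to 2.11). Pik3ip1, an inhibitor of phosphoinositide 3-kinase, was 2.40-fold (1.53 to 3.70) and 1.99-fold higher (1.28 to 3.03). Early response genes of the T cell receptor were higher in 13 of 14 (43.1% of all genes), with 3 (21.4%) past 1.5-fold (5.76% of all genes), and their sum was 1.38-fold (1.29 to 1.47) and 1.43-fold higher (1.35 to 1.51). That sum was 9386 and 6808 CPM in lymph node and 9981 and 7003 CPM in spleen, and Btg1 made up a large part of the gap. One of these genes, Jun, was under 100 CPM in Foxp3 cells of lymph node and passed through ICRE cells, so the count lends no support of its own. Jun, a subunit of the AP-1 factor, was 2.37-fold (1.45 to 3.8) and 2.23-fold higher (1.45 to 3.36), and Dusp2, a phosphatase of activated MAP kinases, 1.87-fold (1.44 to 2.42) and 2.0-fold higher (1.62 to 2.47). Weighted for depth, early response genes had median log2 ratios of 0.21 in lymph node and 0.04 in spleen, growth brakes 0.51 and 0.22. Without cells holding other cell types' or cycling markers the early response median was -0.17 in spleen. The receptor complex itself had medians of 0.37 and 0.15 unweighted, and 0.14 and 0.00 when weighted for depth.

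Myc was sparse on both sides. In thinned counts it had 0 UMIs in ICRE cells and 23 in Foxp3 cells of lymph node, and 1 and 43 in spleen (6.27 and 58.1 CPM, 9.27-fold lower, 1.58 to 375). In full counts it had 1 UMI against 81 and 6 against 131, ratios of 0.11 (0.00 to 0.64) and 0.46 (0.17 to 1.04). Whether these UMIs come from the part of Myc that Cre removes was not tested, so they do not check deletion in a cell. EYFP and CRE had 0 thinned UMIs on either side. Max, the partner of Myc in binding DNA, was 1.60-fold (0.95 to 2.60) and 2.06-fold higher (1.22 to 3.39) in ICRE cells.

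Known Myc target genes, mostly nucleolar and chaperone genes, were at 0.87 times (0.81 to 0.93) and 0.79 times (0.74 to 0.84) their summed level in Foxp3 cells. Of 18 at 100 CPM, 11 were lower and 1 higher in both libraries (26.8% and 43.1% of all genes), and 1 (5.56%, against 3.73% of all genes) was past 1.5-fold lower. Cdk4, a member, was under 100 CPM in ICRE cells of both libraries and passed through Foxp3 cells, so the count lends no support of its own. Hnrnpa1, an RNA-binding splicing factor, was 1.63-fold (1.07 to 2.58) and 1.65-fold lower (1.11 to 2.54). The ribosomal protein genes, which held 284000 and 330960 CPM in lymph node and 278110 and 314450 CPM in spleen, were lower in 73 and 70 of 82 (39.8% and 41.5% of all genes), with 7 (8.54%) past 1.5-fold lower in both (3.73% of all genes). Their median log2 ratios were -0.26 and -0.22. Rps12 was 1.83-fold (1.56 to 2.16) and 1.78-fold lower (1.53 to 2.08), Rplp0, a stalk protein of the large subunit, 1.67-fold (1.52 to 1.84) and 1.68-fold lower (1.54 to 1.84), and Rpsa, of the small subunit, 1.66-fold (1.46 to 1.89) and 1.86-fold lower (1.65 to 2.11). Eef1a1, which delivers transfer RNA to the ribosome, was 1.44-fold lower in both (1.32 to 1.58 and 1.32 to 1.56).

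Depth moved with these translation and Myc target values. With Foxp3 cells weighted to match ICRE cells in depth, the ribosomal medians were -0.04 and -0.05, with 49 of 82 genes lower in each library, and the Myc target medians -0.04 and -0.03. The median of all genes tested was 0.03 and 0.05 with that weighting. Among cells of 1200 to 2400 UMIs they were -0.08 and -0.07 for ribosomal genes and 0.06 and 0.10 for Myc targets. The medians of the effector and resting lists kept their direction, but not every gene did. In lymph node 2 of 11 effector genes were higher and 2 of 14 resting genes lower, and in spleen 3 of 14 resting genes were lower. The medians weighted for depth were -0.80 and -1.76 for the effector list and 0.91 and 0.62 for the resting list. Weighted the same way, Klf2 was at log2 1.15 and 0.78, Bcl2 at 0.67 and 1.78, S100a4 at -3.64 and -3.99 and Icos at -1.81 and -2.10. Weighted for depth and for resting and effector UMIs together, 71 and 73 of 82 ribosomal genes were lower, 63 of them in both libraries. In that setting 8 and 12 of 16 Myc targets were lower. The part of depth in these results beyond the weighting was not tested.

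**Figure D5:**
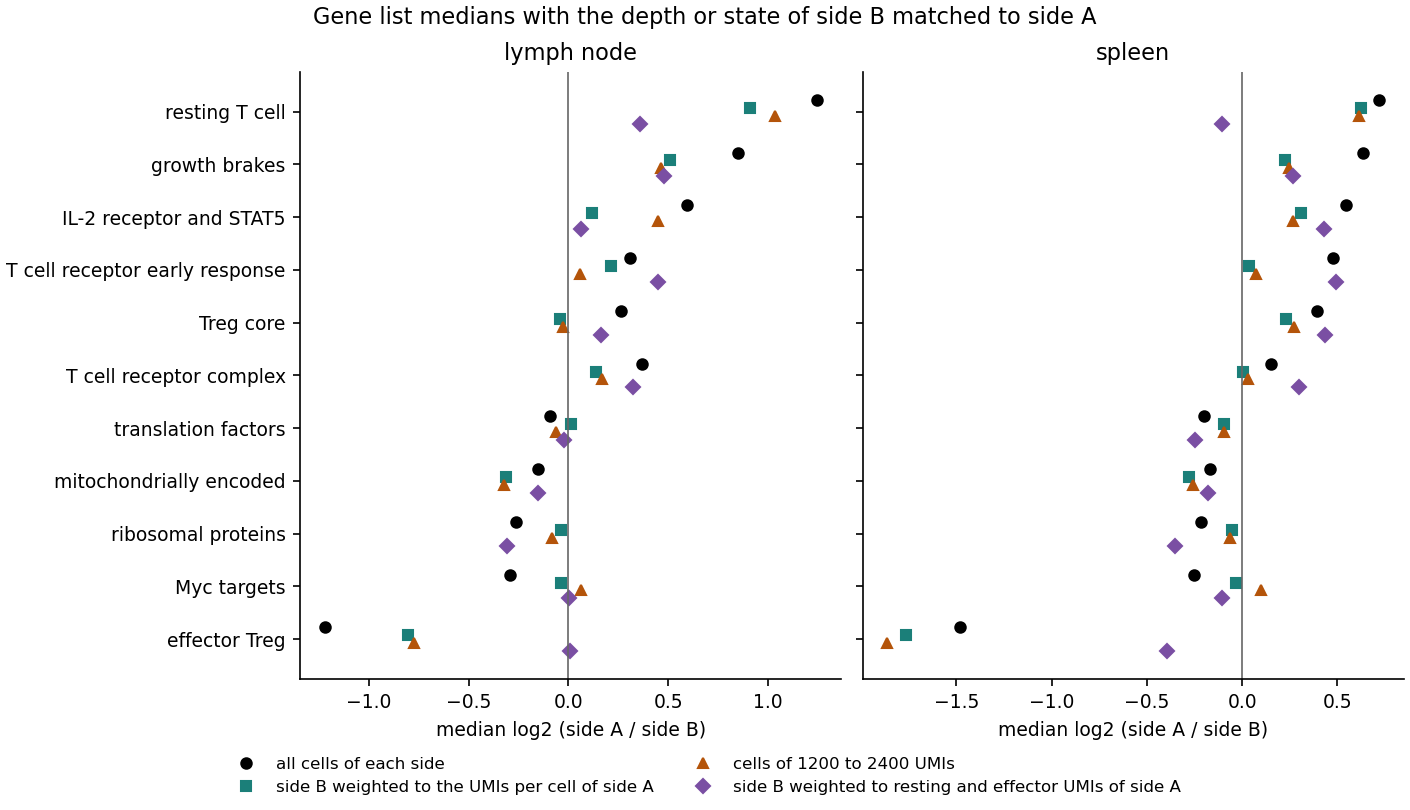
Median log2 ratio of side A (ICRE) to side B (Foxp3) of 11 gene lists (x axis) in lymph node and spleen, for all cells and with depth or resting and effector UMIs matched. Ribosomal and Myc target medians lie near 0 when depth alone is matched, and the effector medians stay at -0.80 and -1.76 when side B is weighted for depth. Ribosomal medians lie at -0.31 and -0.35 when resting and effector UMIs are matched.

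Several gene groups had medians near or a little above that of all genes. Oxidative phosphorylation genes had medians of 0.03 and 0.13, major histocompatibility complex class I genes 0.12 and 0.21, Gimap guanosine triphosphatases 0.18 and 0.29 and interferon response genes -0.04 and 0.05. Below it lay genes encoded in mitochondria, with medians of -0.16 and -0.17, nutrient transporters, with -0.23 (5 genes) and -0.28 (4 genes), and cell cycle genes, with -0.31 and -0.43 (5 genes). Of the mitochondrial genes, mt-Co1, a subunit of cytochrome oxidase, was 1.34-fold (1.23 to 1.47) and 1.36-fold lower (1.24 to 1.49) in ICRE cells. Glycolysis genes had medians of -0.14 and -0.34 (6 genes) and summed to 0.91 times (0.81 to 1.02) and 0.89 times (0.80 to 0.98), with Gapdh 1.70-fold (1.30 to 2.25) and 1.53-fold lower (1.21 to 1.96) and Eno1 1.51-fold (1.15 to 1.95) and 1.60-fold higher (1.27 to 1.99). Without cells holding other cell types' or cycling markers, Gapdh was at log2 0.35 in spleen and Eno1 at -0.12 in lymph node, so neither direction held there.

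Of genes outside the lists, Foxn3, a forkhead repressor, was 4.34-fold (3.18 to 5.91) and 2.30-fold higher (1.72 to 3.06) in ICRE cells. Chchd10, a protein of the mitochondrial intermembrane space, was 3.07-fold (2.19 to 4.27) and 2.78-fold higher (2.10 to 3.67), and Ncoa7, a nuclear receptor coactivator, 3.62-fold (2.13 to 6.09) and 2.51-fold higher (1.59 to 3.89). Ncoa7 was under 100 CPM in Foxp3 cells of both libraries and passed the minimum through ICRE cells. Tmsb10, a small actin-binding protein, was at 10512 and 6203 CPM in lymph node (1.70-fold, 1.59 to 1.80) and 9988 and 6130 CPM in spleen (1.63-fold, 1.54 to 1.73). Lower in ICRE cells were AW112010, 2.53-fold (2.04 to 3.17) and 2.54-fold (2.07 to 3.15), and Ass1, of arginine synthesis, 2.45-fold (1.56 to 4.03) and 3.09-fold (2.14 to 4.60). From the cell cycle list, Hmgb2, a chromatin protein abundant in dividing cells, was 2.36-fold (1.68 to 3.40) and 4.20-fold lower (2.91 to 6.29).

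Markers of other cells also differed between the sides. The 12 B cell markers summed to 848 CPM in ICRE and 1348 CPM in Foxp3 cells of lymph node, with 11 and 12 detected, and to 990 and 1348 CPM in spleen, again 11 and 12. At least 2 UMIs of them were in 7.89% and 37.7% of lymph node and 20.3% and 35.5% of spleen cells. Ighm, the immunoglobulin M heavy chain and a member of the 12, was among the lowest genes in ICRE cells, at 205 and 866 CPM in lymph node and 276 and 758 CPM in spleen. Its gap was wider than that of the whole sum in each library, so the other markers together were higher in ICRE cells. Without any cell holding a thinned B cell marker UMI, the medians were -0.81 and -0.95 for the effector list and -0.34 and -0.31 for ribosomal genes, and S100a4 was at -3.92 and -5.06. Markers of natural killer or innate lymphoid cells were at 0 UMIs in ICRE cells of both libraries and at 31 and 28 UMIs in Foxp3 cells. Of 10 myeloid markers, 2 were detected in ICRE cells and 3 in Foxp3 cells, with Lyz2, Csf1r and Cd68 at 0 in all. Cycling markers were at 36.6 and 250 CPM in lymph node and 31.3 and 228 CPM in spleen, and Mki67 had 0 and 13 UMIs and 1 and 22 UMIs. The part of B cell RNA and of dividing cells in the gene differences was not tested beyond these values.

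The same contrast was made in cells with 0 and with 1 Ikzf2 UMI, outside the Helios-positive range. With 0 Ikzf2 UMIs (142 ICRE and 269 Foxp3 cells in lymph node, 236 and 352 in spleen), Bcl2 was 2.12-fold (1.76 to 2.54) and 2.01-fold higher (1.74 to 2.32) in ICRE cells, and Klf2 1.78-fold (1.53 to 2.07) and 1.49-fold higher (1.32 to 1.69). Ccr7 was 1.19-fold (0.82 to 1.71) and 1.31-fold higher (1.01 to 1.70). For the genes that make up the lists above, the median log2 ratio there was -0.28 and -0.26 for effector genes and 0.82 and 0.51 for resting genes. Ribosomal genes had medians of -0.32 and -0.35. Icos in spleen had 24 and 35 UMIs, a ratio of 1.02 (0.58 to 1.77), against 0.22 (0.13 to 0.36) in Helios-positive cells, but in lymph node 1 and 29 UMIs, a ratio of 0.07 (0.00 to 0.39) against 0.28 (0.10 to 0.64). The difference between Helios classes was not tested over replicates.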

How the data were processed

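The deposited values are UMI counts per gene and barcode. The submitters' processing notes name Cell Ranger 3.0.1 and mm10. The lowest barcode total is 500 UMIs in each library. Positions are those of GENCODE M21 (GRCm38). Reads, and how the added features were built, were not used here. The members and gene lists were chosen with earlier results of these data known.

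Sides were called on full counts. Cells were then thinned without replacement to 1200 UMIs (seed 1), counts summed per side and scaled to CPM. Ratios have exact conditional, shares Clopper-Pearson 95% intervals, for counting error alone (Python 3.11.15, scipy 1.17.1, numpy 2.4.6). A gene needed a mean of 100 CPM over the 2 sides. A count of 0 was set to 3 counts in a log2 ratio. Gene lists overlap. Cells were weighted in 5 depth bins, or in 4 strata by resting and effector UMIs. Scrublet scores came from scanpy 1.11.5, doublets were kept, and an alternative left out the highest 6%.

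The 75 named genes were the 12 highest and 12 lowest in side A by the interval bound nearest to equality in both libraries, up to 3 members per list by mean log2 ratio with the same sign in both, and always Myc, Il2ra, Klf2, Ccr7, Icos, Cxcr3, Itgb1, Mki67, Ikzf2, Foxp3 and the added features. S1pr1, Lef1, Il7r, Capg, Maf, Vim, Klrg1, Itgae, Izumo1r, H2afz, Ptma and Ptpn18 were chosen after their values were seen. Scripts were tested on simulated data.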

Additional observations from a re-analysis of the deposited data

Results flagged for a closer look

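Of 1233 genes tested, 4 lay on opposite sides of equality in the 2 libraries with both counting intervals clear of it. The difference between the libraries was not tested, since each tissue has 1 library. Izumo1r, the folate receptor family protein FR4 of Treg cells, had a log2 ratio of ICRE to Foxp3 cells of -0.64 in lymph node (125 and 906 UMIs) and 0.42 in spleen (182 and 629 UMIs). H2afz, a histone H2A variant, was at -0.31 in lymph node and 0.27 in spleen. Ptma, the chromatin-associated protein prothymosin alpha, was at 0.22 in lymph node and -0.24 in spleen. Ptpn18, a tyrosine phosphatase, was at -0.31 in lymph node and 0.32 in spleen. Of these genes, H2afz and Ptma changed direction in a library when Foxp3 cells were weighted to the depth of ICRE cells, while Izumo1r did not in any alternative run.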

How the results depend on the processing

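The same contrast was rerun under other settings, and those marked as added were chosen after seeing the data. Values below are log2 ratios of ICRE to Foxp3 cells, medians for gene lists, for results that changed direction or moved beyond their counting interval, or counts of genes past the fold in both libraries (71 and 46 above). The cause was not tested. On full counts, Ptma was at -0.12 in lymph node. Myc targets were at -0.52 and H2afz -0.15 in spleen. In cells of at least 2000 UMIs thinned to 2000, H2-Q7 was at -0.025 in lymph node. Cdk4 was at 0.59, Slc25a5 0.18, Gimap6 -0.029 and Ptpn18 -0.093 in spleen. Where at least 2 UMIs were needed to call a side (14 and 20 ICRE cells) there were 150 genes higher and 76 genes lower. The resting list was at 1.64, TCR early response 0.79, ribosomal proteins -0.39, Slfn2 -0.13, H2-Q7 -0.036, Ccr7 -0.15 and Ptma -0.19 in lymph node. The resting list was at 1.55, growth brakes 0.99 and Trbc1 -0.18 in spleen. When thinned counts called the sides, ribosomal proteins were at -0.15, H2afz 0.19 and the share of ICRE cells was 27.7% in lymph node. Ribosomal proteins were at -0.060, Myc targets -0.066, Eif4a2 -0.12 and the share of ICRE cells was 29.7% in spleen. After weighting of Foxp3 cells for depth there were 37 genes higher. Ribosomal proteins were at -0.036, Ecm1 -0.045 and H2afz 0.064 in lymph node. Growth brakes were at 0.22, TCR early response 0.037, TCR complex 0.0049, ribosomal proteins -0.051, Myc targets -0.034 and Ptma 0.014 in spleen. Leaving out cells with 2 or more UMIs of other-type or cycling markers there were 26 genes lower. The effector list was at -0.37, ribosomal proteins -0.34, Icos 0.045, Lgals1 0.21, S100a11 0.63, Eno1 -0.12, Gm12840 -0.22, Capg 0.045 and Maf 0.045 in lymph node. H2afz was at 0.45 in lymph node. The effector list was at 0.077, growth brakes 0.33, TCR early response -0.17, ribosomal proteins -0.39, Icos 0.35, Stmn1 0.77, Slc25a4 0.67, Gapdh 0.35 and Slc25a5 0.070 in spleen. Eif4a2 was at -0.23, Jun -0.54, Vim 0.21 and Ptpn18 -0.21 in spleen. After weighting for resting and effector UMIs there were 42 genes higher and 15 genes lower. The resting list was at 0.36, the effector list 0.0091, ribosomal proteins -0.31, S100a11 0.0091, Ecm1 -0.053, Bcl2 -0.22 and H2afz 0.19 in lymph node. The resting list was at -0.11, the effector list -0.39, growth brakes 0.27, ribosomal proteins -0.35, Myc targets -0.10, Trbc1 -0.15, Foxp1 -0.14 and Lef1 -0.35 in spleen. Scaled on genes other than ribosomal and mitochondrial ones, ribosomal proteins were at -0.37 in lymph node and -0.30 in spleen. Under median ratio scaling, ribosomal proteins were at -0.37 in lymph node and -0.31 in spleen. Among cells of 1200 to 2400 UMIs (added) there were 47 genes higher. TCR early response was at 0.059, ribosomal proteins -0.082, Myc targets 0.064, mitochondrially encoded -0.32 and H2afz 0.0081 in lymph node. Growth brakes were at 0.25, TCR early response 0.075, ribosomal proteins -0.066, Myc targets 0.10, Stmn1 1.04, Slc25a4 0.21, Eif4a2 -0.37 and Ptma 0.17 in spleen. For cells with 2 or 3 Ikzf2 UMIs (added) there were 30 genes lower. Ribosomal proteins were at -0.33 in lymph node. The effector list was at -1.01, Myc targets -0.12 and Ptma 0.0036 in spleen. Weighted for depth and state together (added) there were 36 genes higher and 19 genes lower. The resting list was at 0.41, the effector list 0.28, the IL-2 list -0.21, Lgals1 0.035, S100a11 0.28, Hmgb2 0.012, Hnrnpa1 0.11, Gpi1 0.59 and Il2ra -0.46 in lymph node. Ecm1 was at -0.40, Gpr83 -0.10, Bcl2 -0.47 and H2afz 0.28 in lymph node. The resting list was at -0.12, the effector list -0.55, growth brakes -0.042, Myc targets -0.074, Slc25a4 0.37, Trbc1 -0.081, Klf2 -0.088 and Satb1 -0.12 in spleen. Lef1 was at -0.16 and Ptma 0.15 in spleen. Free of any thinned B cell marker UMI (added), ribosomal proteins were at -0.34 and H2afz 0.12 in lymph node. The effector list was at -0.95 and ribosomal proteins -0.31 in spleen. At a minimum of 50 CPM there were 150 genes higher and 92 genes lower. At a minimum of 200 CPM there were 25 genes higher and 30 genes lower. Past 2-fold there were 17 genes higher and 13 genes lower. S100a4, S100a6, Foxn3, Tmsb10 and Btg1 kept their direction in both libraries under each setting that gave them a value. Of the summary results, 438 values under other settings were unmoved, 63 moved and 9 changed direction. Of the values of single genes, 2360 were unmoved, 506 moved beyond their counting interval and 64 changed direction. The median of all genes shifts from 0.11 and 0.09 to 0 under median ratio scaling. No paired analysis was possible because the values come from no test: both sides were compared within each library, and the 2 libraries are 1 per tissue, not replicates. Single UMIs call most cells, and counts under about 10 UMIs leave wide intervals.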
